A study of Mus musculus with 9 samples.

Results

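Transcripts of 9 enzymes of alcohol, aldehyde and acetate metabolism were followed in mouse hippocampus, and several of them mainly handle aldehydes that do not come from ethanol. The genes were chosen by name as enzymes of this metabolism (Adh5, Cat, Aldh2, Aldh3a2, Aldh5a1, Aldh7a1, Aldh9a1, Acss1 and Acss2). Their Ensembl identifiers were looked up in the GENCODE M21 annotation. All 9 were among the 14779 genes of the deposited table, and all 9 were among the 14696 genes that passed the filter on low counts. Polyadenylated RNA of dissected hippocampi was sequenced in 3 groups of 3 libraries, which the study design describes as 3 mice per group. The CIE+IL17 Ab mice underwent CIE, the field's abbreviation for chronic intermittent ethanol exposure, and received an antibody against the cytokine IL-17A. The CIE+IgG mice underwent CIE and received the IgG control that the labels name as isotype, and the Air+IgG mice were kept in air and received the same IgG. Every group was thus given an antibody, and no group of air-exposed mice received the antibody against IL-17A. The sources used here give no strain, age, ethanol schedule or antibody dose. The series title poses the question that the comparisons bear on, whether blocking IL-17 signalling alters the outcome of alcohol exposure.

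In mammals ethanol is oxidised to acetaldehyde by alcohol dehydrogenases, by the microsomal cytochrome Cyp2e1 and by catalase, and catalase takes a larger part in brain than in liver. Aldehyde dehydrogenases turn acetaldehyde into acetate, mitochondrial Aldh2 having the highest affinity for it, while the other family members mainly handle aldehydes that arise from lipids, amino acids, polyamines and neurotransmitters. Acetyl-CoA synthetases then join acetate to coenzyme A for energy metabolism, lipid synthesis and, in the nucleus, histone acetylation.

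The stretches of 250 bases before the transcription start are shown for Aldh9a1 and Cat, the members with a difference between groups that passed the test, and for Adh5, the member that varied least over the libraries. They are RefSeq promoter windows on GRCm38, written 5′ to 3′ on the strand of the gene, and capitals mark, on either strand, the CCAAT box, the GC box GGGCGG, the TATA box TATAAA and the core of the antioxidant response element, TGACNNNGC. The windows are chr1:167349741-167349990 on the plus strand for Aldh9a1, chr2:103485154-103485403 on the minus strand for Cat and chr3:138442843-138443092 on the plus strand for Adh5.
Aldh9a1: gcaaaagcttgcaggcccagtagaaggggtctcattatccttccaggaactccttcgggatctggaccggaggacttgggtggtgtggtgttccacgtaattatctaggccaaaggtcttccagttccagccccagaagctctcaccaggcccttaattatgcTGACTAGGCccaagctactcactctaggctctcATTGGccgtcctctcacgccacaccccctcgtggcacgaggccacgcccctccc
Cat: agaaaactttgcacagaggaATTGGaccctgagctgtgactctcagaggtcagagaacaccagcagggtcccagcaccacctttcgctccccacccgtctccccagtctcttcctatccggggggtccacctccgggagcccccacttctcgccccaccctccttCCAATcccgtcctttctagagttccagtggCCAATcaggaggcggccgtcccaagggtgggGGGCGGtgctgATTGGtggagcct
Adh5: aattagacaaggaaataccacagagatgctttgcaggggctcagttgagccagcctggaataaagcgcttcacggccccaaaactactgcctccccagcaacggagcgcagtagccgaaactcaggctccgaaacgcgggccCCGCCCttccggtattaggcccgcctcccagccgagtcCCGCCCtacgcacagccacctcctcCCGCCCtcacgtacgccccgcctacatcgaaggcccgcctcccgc
The Aldh9a1 window held 1 CCAAT, on the reverse strand and 54 to 50 bases before the start, and 1 TGACNNNGC, 87 to 79 bases before it. The Cat window held 4 CCAAT, the nearest 13 to 9 bases before the start, and 1 GGGCGG, 24 to 19 bases before it. The Adh5 window held 3 GGGCGG, all on the reverse strand, and neither of the other boxes nor TGACNNNGC. Guanine and cytosine made up 57.6% of the Aldh9a1 window, 62% of the Cat window and 63.6% of the Adh5 window. RefSeq windows were taken for 7 of the 9 members, Adh5 with a second start, which gave 8 windows. CCAAT was in 5 of these 8 and in 33.8% of all 32851 windows, GGGCGG in 5 of 8 and in 32.7% of all, TATAAA in 1 of 8 and in 12.4%, and TGACNNNGC in 2 of 8 and in 10.2%. The only TATAAA was before the second Adh5 start, 138437200, which lies outside the annotated span of the gene. The bases after that start, and after the Aldh3a2 start, were not found near the beginning of a GENCODE transcript of the gene. In the window of Acss2, the other of these 7 members with TGACNNNGC, that match overlapped a GGGCGG. Aldh9a1 and Cat shared CCAAT and no other of these motifs, and a match of letters is a description and not evidence of binding.

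The library totals ran from 7372658 to 11894628 expected counts, and the members had between 127 and 1636 expected counts per library. CIE+IL17 Ab replicate 1, with 495056 expected counts on Lars2, and Air+IgG replicate 2, with 593544, stood apart from the other 7 libraries, which had 301 to 2167. Marker levels of neighbouring tissue also differed: 14 markers of thalamus and habenula, brain regions that lie beside the hippocampus, summed to 1354 to 2229 CPM (expected counts scaled to a common library size) in CIE+IL17 Ab libraries, to 294 to 434 CPM in CIE+IgG libraries and to 216 to 321 in Air+IgG libraries. Of the 14, 11 rose in CIE+IL17 Ab against CIE+IgG and all 14 against Air+IgG, at an adjusted p under 0.05 in edgeR's quasi-likelihood test. Of all genes, 1.78% were called higher against CIE+IgG and 6.83% against Air+IgG. The marker lists were chosen with earlier results of these data known, so counts over them are a description and no independent test. The 13 markers of hippocampal pyramidal and granule neurons had reads in every group and summed to 664 to 1657 CPM in CIE+IL17 Ab, 1669 to 2515 in CIE+IgG and 1875 to 3382 in Air+IgG. Zbtb20 is the largest part of that sum, at 699.5 CPM in CIE+IL17 Ab, 1332 in CIE+IgG and 1394 in Air+IgG on average. Of these 13, 3 fell in CIE+IL17 Ab against CIE+IgG and 5 against Air+IgG. Of all genes, 3.18% were called either way against CIE+IgG and 13.5% against Air+IgG. In bulk tissue, fewer cells of a type and less RNA per cell cannot be told apart.

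Among the members that can oxidise an alcohol, Adh5 is the class III alcohol dehydrogenase, which clears formaldehyde bound to glutathione and reduces S-nitrosoglutathione, and is the form of the family found throughout the brain. Adh5 (chromosome 3, 138443093 to 138455499, plus strand, GRCm38) had 48.6, 45.9 and 43.9 CPM in CIE+IL17 Ab libraries, 48.3, 45.9 and 45.4 in CIE+IgG libraries and 45.6, 46.4 and 45.5 in Air+IgG libraries. The 3 groups overlapped fully, and the coefficient of variation over the 9 libraries was 3.22%, at the 0.197 percentile of all genes tested. The log2 fold change was −0.013 for CIE+IL17 Ab against CIE+IgG, 0.0090 for CIE+IL17 Ab against Air+IgG and 0.022 for CIE+IgG against Air+IgG. The 95% intervals of the comparisons ran at most from −0.18 to 0.19.

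Cat encodes catalase, the peroxisomal enzyme that breaks down hydrogen peroxide and, with peroxide as co-substrate, oxidises ethanol to acetaldehyde. Cat (chromosome 2, 103453849 to 103485160, minus strand) had 63.0, 66.5 and 68.7 CPM in CIE+IL17 Ab libraries, 59.2, 51.6 and 60.6 in CIE+IgG libraries and 52.5, 55.5 and 49.2 in Air+IgG libraries. All 3 CIE+IL17 Ab libraries lay above the other 6, while the CIE+IgG and Air+IgG libraries overlapped. Cat averaged 66.1 ± 2.88 CPM in CIE+IL17 Ab, 57.1 ± 4.82 in CIE+IgG and 52.4 ± 3.20 in Air+IgG (SD, n = 3 each).

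Among the aldehyde dehydrogenases, Aldh2 is the mitochondrial enzyme for acetaldehyde. Aldh2 (chromosome 5, 121566027 to 121593824, minus strand) had 43.1, 69.9 and 63.6 CPM in CIE+IL17 Ab libraries, 59.0, 51.9 and 59.0 in CIE+IgG libraries and 58.1, 43.4 and 50.4 in Air+IgG libraries. The lowest CIE+IL17 Ab library and the lowest Air+IgG library were the 2 rich in Lars2, and the spread within CIE+IL17 Ab (58.9 ± 14.0 CPM, SD, n = 3) was wider than the distance between any group means. Every pair of groups overlapped.

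Aldh3a2 is the microsomal fatty aldehyde dehydrogenase, whose loss in humans causes Sjögren-Larsson syndrome. Aldh3a2 (chromosome 11, 61223417 to 61267464, minus strand) had 68.0, 55.3 and 52.2 CPM in CIE+IL17 Ab libraries, 59.0, 54.2 and 57.7 in CIE+IgG libraries and 60.1, 50.4 and 60.1 in Air+IgG libraries. The groups overlapped, and the log2 fold changes were 0.036 for CIE+IL17 Ab against CIE+IgG and 0.037 for CIE+IL17 Ab against Air+IgG, each with a standard error of about 0.12.

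Aldh5a1 is succinic semialdehyde dehydrogenase, the last step in the breakdown of the inhibitory transmitter GABA. Aldh5a1 (chromosome 13, 24907579 to 24937661, minus strand) had 178, 128 and 126 CPM in CIE+IL17 Ab libraries, 114, 120.2 and 124 in CIE+IgG libraries and 109, 131 and 114 in Air+IgG libraries. Each CIE+IL17 Ab library exceeded each CIE+IgG library, and 1 of them, replicate 1, which is rich in Lars2, stood well above the remaining 8. The next highest, at 131 CPM, was Air+IgG replicate 2, the other library rich in Lars2. Without CIE+IL17 Ab replicate 1 the log2 fold change against CIE+IgG was 0.092, in place of 0.27, and that against Air+IgG was 0.11, in place of 0.29.

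Aldh7a1 acts on the semialdehyde formed in lysine breakdown, and its loss in humans causes pyridoxine-dependent epilepsy. Aldh7a1 (chromosome 18, minus strand) had 73.8, 74.2 and 74.0 CPM in CIE+IL17 Ab libraries, 66.5, 67.8 and 78.2 in CIE+IgG libraries and 61.8, 56.5 and 67.3 in Air+IgG libraries. The CIE+IL17 Ab libraries all lay above the Air+IgG libraries and inside the range of CIE+IgG, and their SD of 0.200 CPM was the smallest of any member in any group. The span of the gene, introns included, overlaps that of Phax on the opposite strand over 10509 bases. How much of this overlap is exon was not measured. The libraries were prepared with a stranded kit. The sources used here do not say whether the counting used strand, so reads of the pair may be mixed. Phax averaged 34.9 ± 3.02 CPM in CIE+IL17 Ab, 33.2 ± 1.34 in CIE+IgG and 41.0 ± 2.36 in Air+IgG, which is not the order of Aldh7a1. The order cannot tell whether reads were mixed, and this was not tested.

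Aldh9a1 oxidises betaine aldehydes, including trimethylaminobutyraldehyde on the route to carnitine, and the aminobutyraldehyde that comes from putrescine on a minor route to GABA. Aldh9a1 (chromosome 1, 167349991 to 167368532, plus strand) had 29.9, 36.8 and 34.8 CPM in CIE+IL17 Ab libraries, 21.3, 22.4 and 28.1 in CIE+IgG libraries and 22.1, 17.1 and 19.4 in Air+IgG libraries. All 3 CIE+IL17 Ab libraries lay above the other 6, and CIE+IgG replicate 3 lay between them and the rest. Aldh9a1 averaged 33.8 ± 3.56 CPM in CIE+IL17 Ab, 23.9 ± 3.70 in CIE+IgG and 19.5 ± 2.51 in Air+IgG (SD, n = 3 each). It was the most variable member, with a coefficient of variation of 27.0% over the 9 libraries, at the 72.4 percentile of all genes tested.

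The 2 acetyl-CoA synthetases differ in place: Acss1 works in mitochondria, and Acss2 in the cytosol and nucleus, where in mouse hippocampal neurons it supplies acetyl-CoA for histone acetylation. Acss1 (chromosome 2, 150618105 to 150668500, minus strand) had 29.7, 42.0 and 41.0 CPM in CIE+IL17 Ab libraries, 40.7, 38.6 and 40.0 in CIE+IgG libraries and 33.3, 36.2 and 39.4 in Air+IgG libraries. Acss2 (chromosome 2, 155517948 to 155585724, plus strand) had 64.3, 70.9 and 58.5 CPM in CIE+IL17 Ab libraries, 62.1, 67.2 and 54.9 in CIE+IgG libraries and 65.1, 64.4 and 65.3 in Air+IgG libraries. For both genes every pair of groups overlapped, and the lowest Acss1 library was CIE+IL17 Ab replicate 1. The span of Acss2, introns included, overlaps that of Gss, the glutathione synthetase gene, over 22544 bases of the opposite strand and that of Ggt7 over 290 bases. Gss averaged 31.9 ± 4.06 CPM in CIE+IL17 Ab, 22.7 ± 4.44 in CIE+IgG and 22.2 ± 1.77 in Air+IgG, with an adjusted p of 0.0547 for CIE+IL17 Ab against Air+IgG (edgeR).

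**Figure D1:**
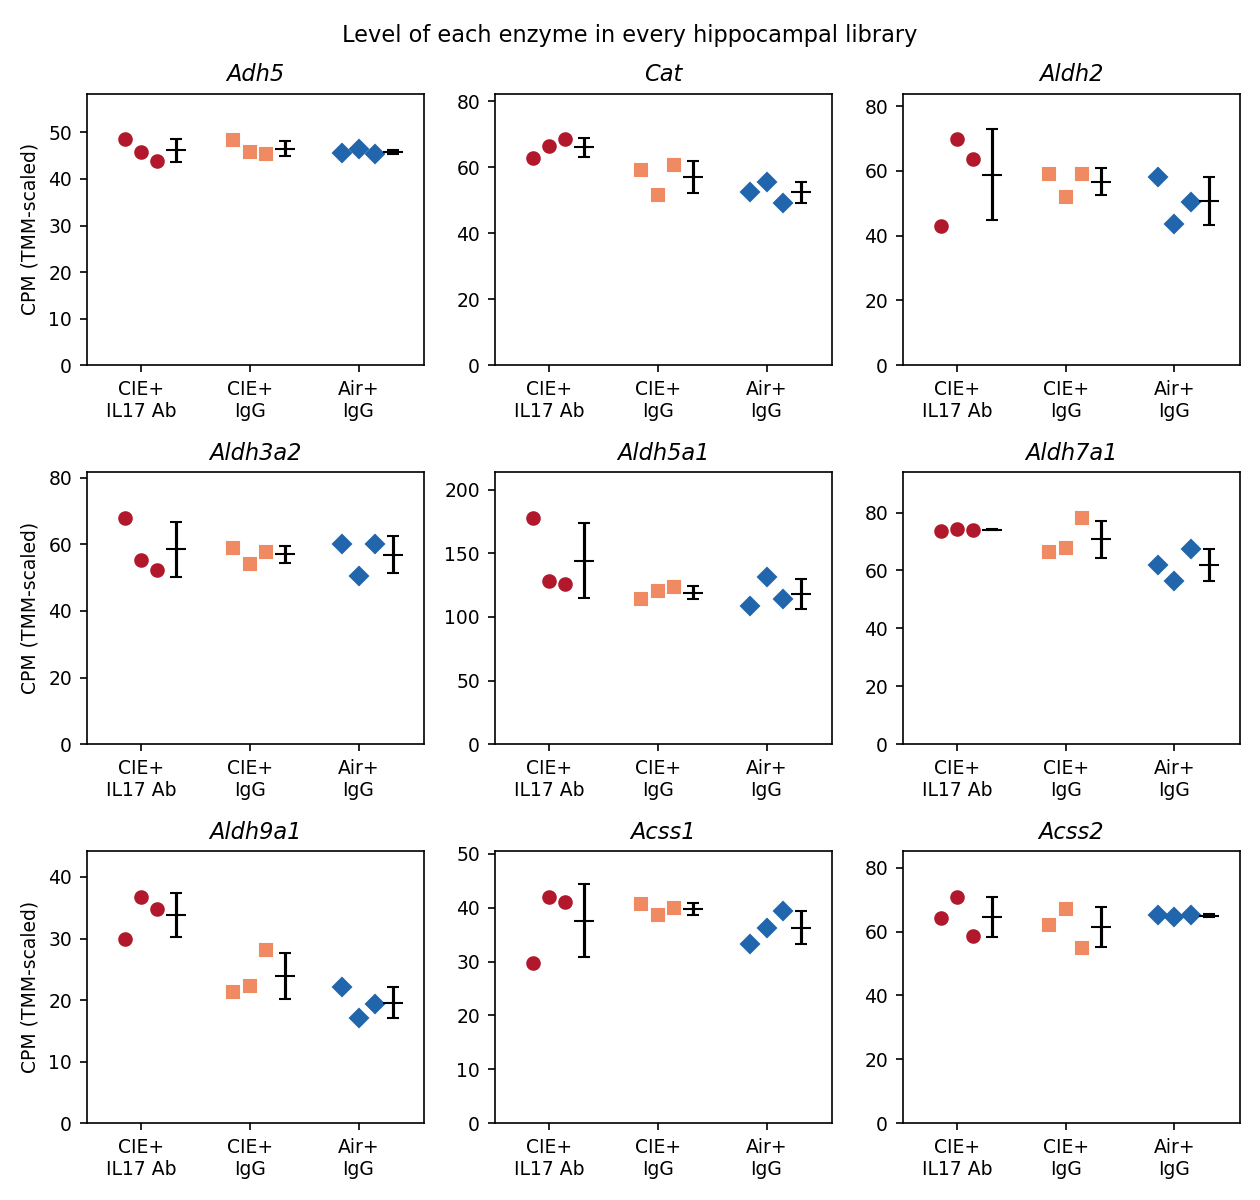
Level of each of the 9 enzymes in CPM in each library of CIE+IL17 Ab, CIE+IgG and Air+IgG, with 1 panel per gene; points are libraries, and the mark beside them is the group mean with SD. For Aldh9a1 and Cat the 3 CIE+IL17 Ab libraries lie above the other 6, while for Adh5 all libraries lie between 43.9 and 48.6 CPM.

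Per length, as CPM per kilobase of the principal transcript averaged over the 9 libraries, Aldh7a1 stood highest at 36.0 and Adh5 next at 28.8. Aldh5a1 at 22.5, Cat at 22.4, Acss2 at 21.7 and Aldh3a2 at 18.6 formed the middle. Aldh2 at 14.3, Acss1 at 10.5 and Aldh9a1 at 9.09 were the lowest. Each gene's range over the libraries overlapped that of its neighbour in this order. Within a library, Aldh7a1 exceeded Adh5 and Aldh2 exceeded Acss1 in all 9, while Adh5 exceeded Aldh5a1, Acss2 exceeded Aldh3a2 and Aldh3a2 exceeded Aldh2 in 8 of 9. The order was mixed for Aldh5a1 over Cat (4 of 9 libraries), Cat over Acss2 (5 of 9) and Acss1 over Aldh9a1 (6 of 9). The order depends on the length used: divided by all annotated exon bases, Aldh5a1 (22.5) and Cat (22.4) were first, Aldh7a1 had 13.3, Adh5 8.54, and Acss2 was last at 6.26 CPM per kilobase.

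**Figure D2:**
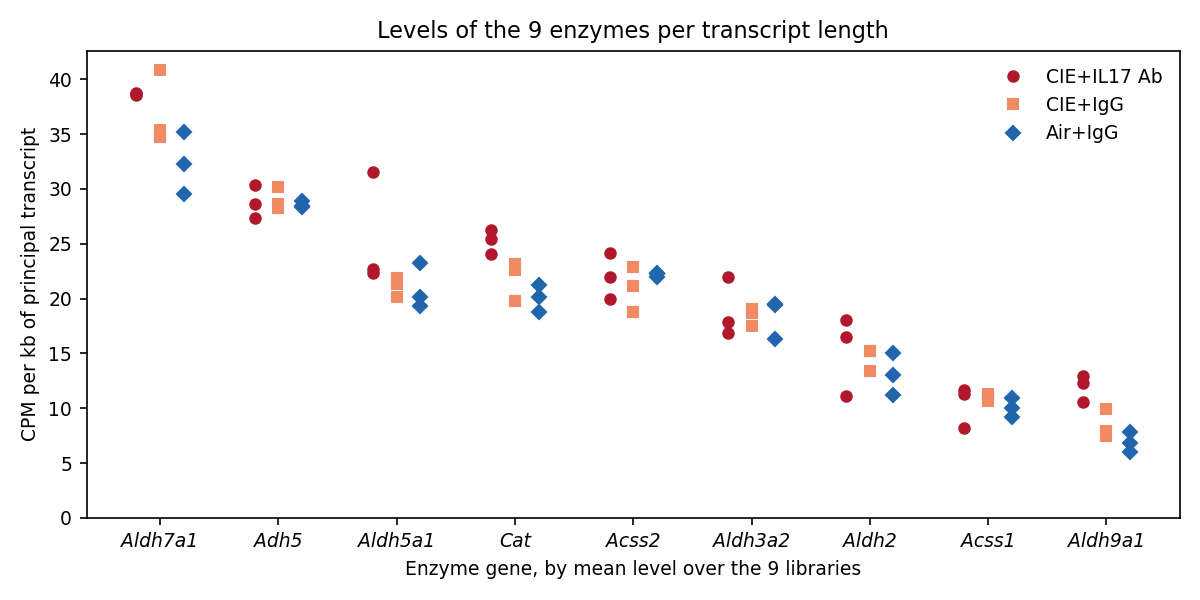
Level of the 9 enzymes in CPM per kilobase of principal transcript, ordered by the mean over all 9 libraries; each point is 1 library and its colour and shape give the group. The mean runs from 36.0 for Aldh7a1 to 9.09 for Aldh9a1, and the ranges of neighbouring genes overlap.

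In CIE+IgG against Air+IgG, the comparison of ethanol with air under the same IgG, none of the 9 enzymes passed an adjusted p under 0.05 in edgeR's quasi-likelihood test. The share of all 14696 genes called was 0%. At an unadjusted p under 0.05 there were 406 genes (2.76%) and 0 members, limma-voom also called 0 genes and DESeq2 called 6 genes, and the smallest adjusted p over all genes was 0.791. The point estimates were small and mostly positive: 8 of 9 lay above 0, with a median log2 fold change of 0.13 beside −0.0073 over all genes, of which 48% lay above 0. That median was 0.078 without Air+IgG replicate 1, 0.083 without Air+IgG replicate 3, 0.082 with CIE+IgG replicate 3 left out and 0.039 in the 6 libraries whose descriptions carry the numbers 54 to 60. Aldh9a1 had the largest, 0.29 ± 0.15 (SE) with a 95% interval from −0.039 to 0.62. Aldh7a1 followed with 0.19 ± 0.092 (SE) and an interval from −0.014 to 0.40. The estimate for Aldh2, the acetaldehyde enzyme, was 0.16, with an interval from −0.24 to 0.56, and that for catalase 0.13, from −0.075 to 0.33, so changes of up to these bounds were not excluded. The estimates of the acetate enzymes had opposite signs, with Acss1 at 0.13 (−0.17 to 0.44) and Acss2 at −0.082 (−0.31 to 0.14). No member separated the 2 groups without overlap, as 9.44% of all genes did. Beside these values, the 13 striatum markers summed to 387 to 1690 CPM in CIE+IgG and 388 to 405 in Air+IgG. The 11 choroid plexus markers summed to 3121 to 5844 CPM in CIE+IgG and 532 to 3894 in Air+IgG, and the 13 meningeal fibroblast markers to 323 to 567 CPM in CIE+IgG and 793 to 1213 in Air+IgG. In CIE+IL17 Ab the sums were 435 to 1138 CPM for striatum, 94.8 to 7405 for choroid plexus and 460 to 742 for meningeal fibroblast markers. The lowest choroid plexus sums were in CIE+IL17 Ab replicate 1 (94.8 CPM) and Air+IgG replicate 2 (532 CPM). These are the 2 libraries rich in Lars2 and the 2 lowest for Aldh2. The part of these tissues in the values of the enzymes was not tested.

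In CIE+IL17 Ab against CIE+IgG, the comparison of the antibody with its isotype control under ethanol, again 0 of the 9 enzymes passed, where 3.18% of all genes were called (468 of 14696) and 1.78% were called higher. At an unadjusted p under 0.05 there were 2 members, Aldh9a1 and Cat, beside 22.3% of all genes, limma-voom called 0 members and DESeq2 called 1, Aldh9a1. Aldh9a1 had a log2 fold change of 0.50 ± 0.14 (SE), a 95% interval from 0.17 to 0.83 and an adjusted p of 0.0885 (edgeR). Its adjusted p was 0.0406 in DESeq2 and 0.0497 in edgeR without CIE+IgG replicate 3, and ran from 0.0406 to 0.62 over the alternatives. Cat had 0.21 ± 0.088 (SE), with an adjusted p of 0.204, and Aldh5a1 0.27 ± 0.14 (SE), with an adjusted p of 0.292 (edgeR). These 3 enzymes were the ones whose CIE+IL17 Ab libraries all lay above the CIE+IgG libraries, a pattern shown by 12.7% of all genes. The remaining members lay between −0.077 (Acss1) and 0.075 (Acss2), and 7 of 9 were above 0.

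In CIE+IL17 Ab against Air+IgG, 2 of the 9 enzymes rose, Aldh9a1 and Cat, and none fell, where 13.5% of all genes were called (1990 of 14696) and 6.83% were called higher. Aldh9a1 rose 1.73-fold, a log2 fold change of 0.79 ± 0.15 (SE), with a 95% interval from 0.46 to 1.12 and an adjusted p of 0.0153 (edgeR). Cat rose 1.26-fold, a log2 fold change of 0.33 ± 0.089 (SE), with a 95% interval from 0.13 to 0.54 and an adjusted p of 0.0400 (edgeR). Aldh7a1, at 0.26 ± 0.092 (SE), did not pass (adjusted p = 0.0937, edgeR), although its CIE+IL17 Ab libraries all exceeded the Air+IgG libraries, as those of Aldh9a1 and Cat did. Such separation upwards was shown by 3 members and by 17.3% of all genes. Aldh5a1 had 0.29 (adjusted p = 0.193) and Aldh2 0.22 (adjusted p = 0.428), and the other 4 members lay between −0.0073 and 0.055. Across the members 8 of 9 estimates were above 0, with a median of 0.22 beside 0.012 over all genes, and the median was 0.11 without Air+IgG replicate 2, 0.073 with CIE+IL17 Ab replicate 2 left out and 0.12 in the libraries numbered 54 to 60. This comparison changes ethanol and antibody together, and it shares the CIE+IL17 Ab libraries with the comparison against CIE+IgG and the Air+IgG libraries with the comparison of ethanol with air.

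Both calls were lost when some single libraries were left out, and the number of all genes called ran from 0 without Air+IgG replicate 3 to 2305 without CIE+IL17 Ab replicate 3. For Aldh9a1 the adjusted p was 0.0566 without Air+IgG replicate 2, 0.0587 without Air+IgG replicate 3 and 0.0634 with CIE+IL17 Ab replicate 2 left out, with log2 fold changes of 0.70, 0.78 and 0.72 (edgeR). For Cat the call was lost without any 1 of the 3 Air+IgG libraries (adjusted p 0.0798 to 0.123), with CIE+IgG replicate 1 left out (0.0663), and with either of CIE+IL17 Ab replicates 2 (0.122) and 3 (0.0813) left out, with log2 fold changes from 0.29 to 0.37. Without the 2 Lars2-rich libraries Aldh9a1 stayed called (0.79, adjusted p = 0.0353) and Cat did not (0.41, adjusted p = 0.0514, edgeR). The library descriptions carry numbers of 37 to 39, 1 per group, and of 54 to 60, 2 per group, whose meaning the labels do not give. Within 37 to 39 the log2 ratio of CIE+IL17 Ab over Air+IgG was 0.92 for Aldh9a1 and 0.44 for Cat, and within 54 to 60 it was 0.72 for Aldh9a1 and 0.28 for Cat. For both enzymes every CIE+IL17 Ab library lay above every Air+IgG library. The direction within either set of numbers was therefore fixed in advance and adds nothing. In the 6 libraries of 54 to 60 alone neither enzyme passed (adjusted p = 0.143 for Aldh9a1 and 0.29 for Cat, edgeR). With the 3 groups tested together, Aldh9a1 was the only member called (adjusted p = 0.0349), where 5.71% of all genes were called, and that call was lost on leaving out any 1 library other than CIE+IL17 Ab replicate 1 or CIE+IgG replicate 3.

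**Figure D3:**
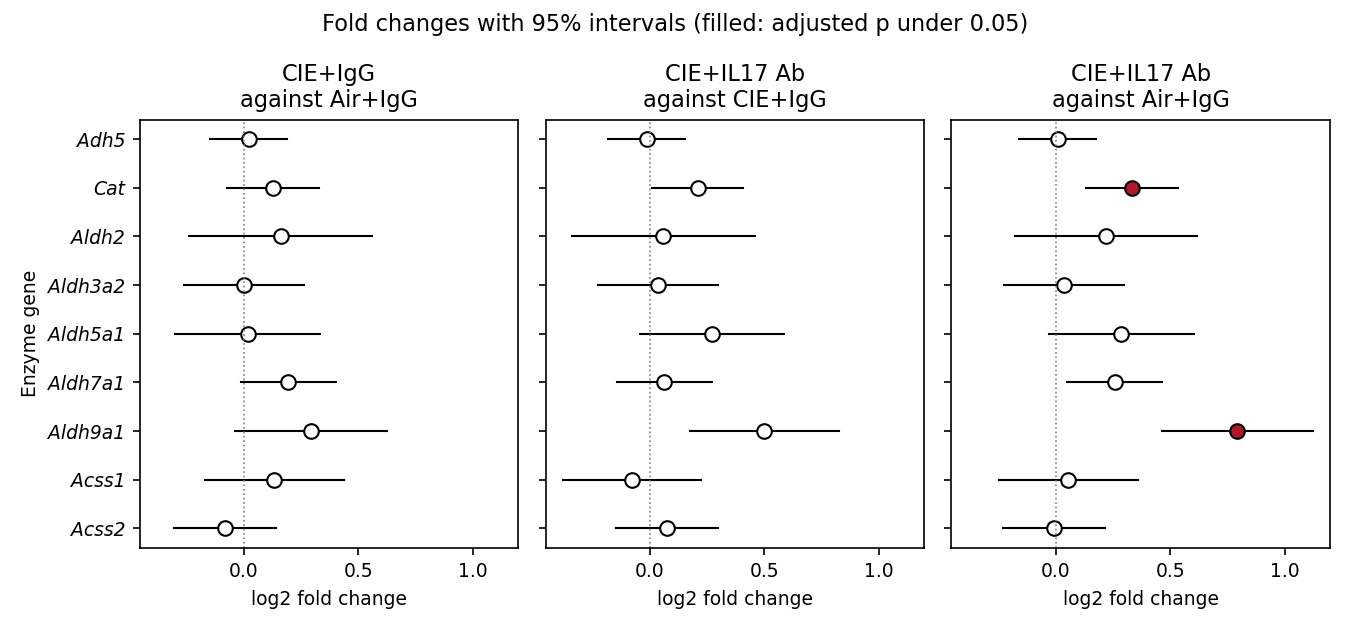
Log2 fold change of each enzyme in CIE+IgG against Air+IgG (left), CIE+IL17 Ab against CIE+IgG (middle) and CIE+IL17 Ab against Air+IgG (right), with 95% intervals from the edgeR fit. Filled points passed an adjusted p under 0.05, and they are Aldh9a1 (0.79) and Cat (0.33) in CIE+IL17 Ab against Air+IgG.

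The summed level of the 9 enzymes was 563 to 599 CPM in CIE+IL17 Ab, 520 to 548 in CIE+IgG and 501 to 511 in Air+IgG, so the ranges of the 3 groups did not overlap. No single member separated CIE+IgG from Air+IgG. The sum weights the members by their level, Aldh5a1 most, at 127 CPM on average. The highest sum was in CIE+IL17 Ab replicate 1, which is rich in Lars2 and where Aldh5a1 had 178 CPM. The sum was not tested and has no share over all genes beside it. Several marker lists also differed between these groups. Thalamus and habenula markers had a sum of 2229 CPM in CIE+IL17 Ab replicate 2, where Aldh9a1 was highest, and of 434 in CIE+IgG replicate 3, the highest of both measures outside CIE+IL17 Ab. The lowest sum, 216 CPM, was in Air+IgG replicate 2, where Aldh9a1 was lowest. Between the remaining libraries of each group Aldh9a1 went against the sum. It was 29.9 CPM at a sum of 1395 in CIE+IL17 Ab replicate 1 and 34.8 CPM at 1354 in replicate 3. In CIE+IgG it was 21.3 CPM at 323 (replicate 1) and 22.4 at 294 (replicate 2). In Air+IgG it was 19.4 CPM at 321 (replicate 3) and 22.1 at 317 (replicate 1). A score of the list averages the log2 CPM of its markers, each centred on its mean over the libraries. It was 1.76, 1.95 and 2.61 in CIE+IL17 Ab replicates 1, 3 and 2, the order of Aldh9a1. In Air+IgG replicates 2, 3 and 1 it was −1.53, −0.992 and −0.968, also the order of Aldh9a1. In CIE+IgG it was −1.06, −1.16 and −0.603 in replicates 1 to 3, so Aldh9a1 went against it between replicates 1 and 2 only. Cat did not follow the sum within CIE+IL17 Ab or Air+IgG: it was highest in CIE+IL17 Ab replicate 3, and in Air+IgG replicate 2 it was the highest of its group. Within CIE+IgG it did follow the sum, with 51.6, 59.2 and 60.6 CPM at 294, 323 and 434 (replicates 2, 1 and 3). Oligodendrocyte markers summed to 6491 to 7885 CPM in CIE+IL17 Ab, 4882 to 7720 in CIE+IgG and 4286 to 4879 in Air+IgG, and 8 of 12 rose in CIE+IL17 Ab against Air+IgG. Astrocyte markers summed to 5700 to 6878 CPM in CIE+IL17 Ab, 7326 to 8196 in CIE+IgG and 8091 to 8387 in Air+IgG. Slc1a2, the main glutamate transporter of astrocytes, makes up most of that sum (3670 CPM in CIE+IL17 Ab and 5768 in Air+IgG, on average) and fell against Air+IgG. Gene by gene the astrocyte list was mixed: 9 of 12 estimates were above 0 against Air+IgG (median 0.22), where Agt rose and Slc1a2 fell, and Agt and Gja1 rose against CIE+IgG with none falling. Microglia markers summed to 356 to 373 CPM in CIE+IL17 Ab, 429 to 455 in CIE+IgG and 409 to 466 in Air+IgG, and endothelial markers to 310 to 358 CPM in CIE+IL17 Ab, 252 to 302 in CIE+IgG and 259 to 345 in Air+IgG. Against Air+IgG, 3 of 12 microglia markers fell and none of 10 endothelial markers passed, where 13.5% of all genes were called either way. No marker of any list was at 0 in a whole group. The score of the thalamus and habenula list shared 0.959 of its variance with membership in CIE+IL17 Ab, so the group and the regional content of its libraries cannot be told apart. The list was chosen with earlier results of these data known, so this share is no independent measure of regional content. With that score as a covariate, Aldh9a1 in CIE+IL17 Ab against Air+IgG had a log2 fold change of −0.62 (adjusted p = 0.794) and Cat 0.22 (adjusted p = 0.941, edgeR).

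**Figure D4:**
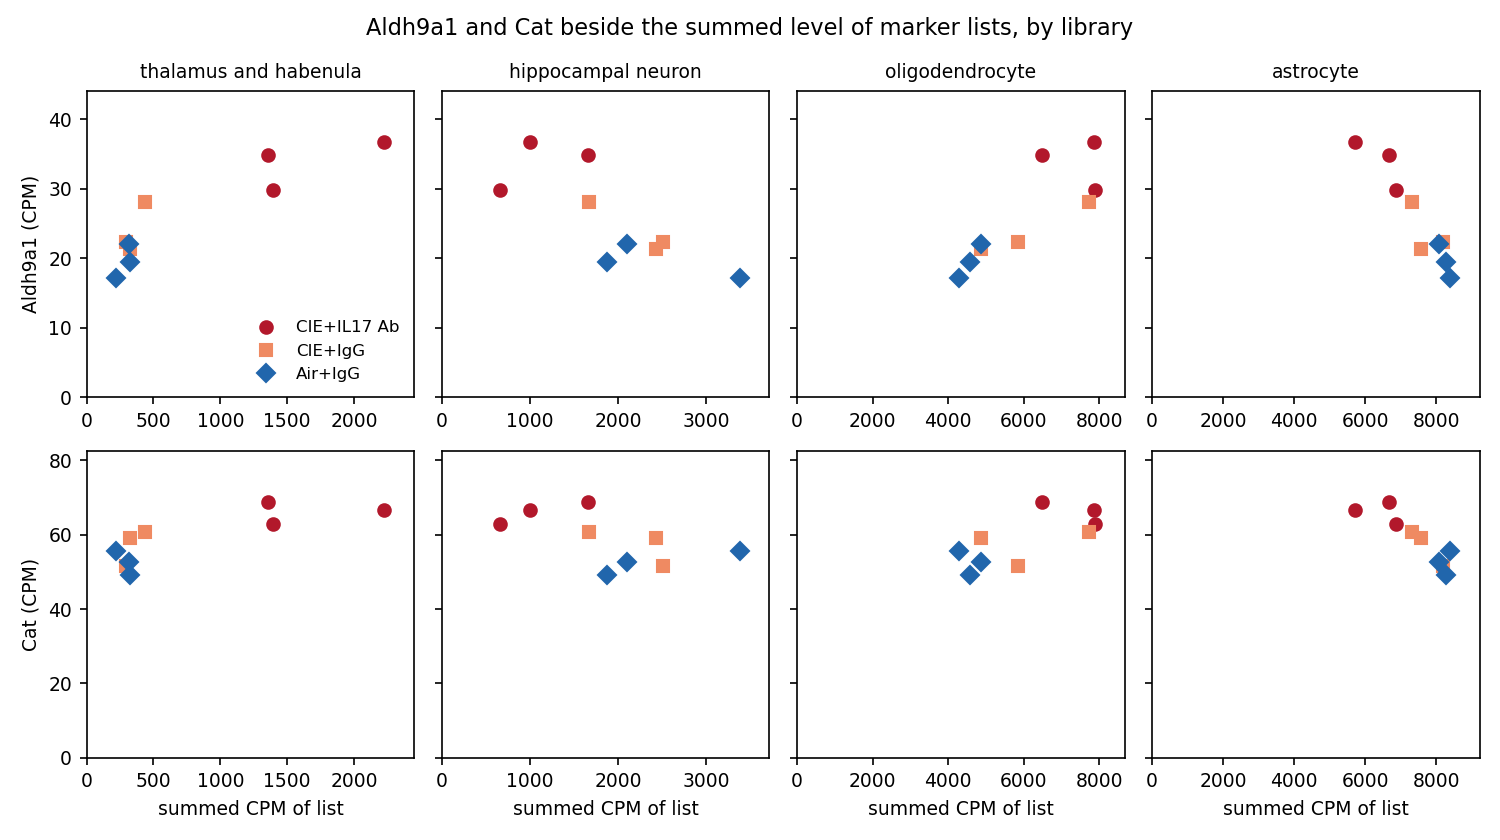
Level of Aldh9a1 (upper panels) and Cat (lower panels) in CPM against the summed CPM of the thalamus and habenula, hippocampal neuron, oligodendrocyte and astrocyte marker lists; each point is 1 library of CIE+IL17 Ab, CIE+IgG or Air+IgG. The CIE+IL17 Ab libraries lie at 1354 to 2229 CPM of thalamus and habenula markers and the other 6 at 216 to 434 CPM.

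Over the 9 libraries, which share these group and regional differences, Pearson's r of log2 CPM between members was highest for Aldh9a1 with Cat (0.841) and Aldh7a1 with Aldh9a1 (0.831), followed by Aldh2 with Acss1 (0.686). The lowest were Aldh3a2 with Acss1 (−0.606) and Aldh5a1 with Acss1 (−0.593). Among 14536 other genes, the pair most like each member was Trim36 (0.990) and Grm4 (0.985) for Aldh9a1, Cacng5 (0.967) and Ssh1 (0.963) for Cat, and Dglucy (0.978) and Dpy19l2 (0.973) for Aldh7a1. For Aldh2 it was Tspan33 (0.990) and Spint2 (0.986), for Aldh3a2 Lmbr1 (0.994) and AI464131 (0.977), and for Aldh5a1 Pou3f2 (0.971) and Apln (0.962). For Adh5 it was Sh3bp5l (0.939) and Lsamp (0.906), for Acss1 Cntd1 (0.939) and Akap14 (0.936), and for Acss2 Stab2 (0.909) and Syngr3 (0.903). These are the highest of many values from 9 libraries and are given as a description.

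The rest of the pathway was read from 6 lists of 68 genes, of which 56 were tested. None of the 56 passed in CIE+IgG against Air+IgG or in CIE+IL17 Ab against CIE+IgG, and in CIE+IL17 Ab against Air+IgG 6 rose (10.7%, beside 6.83% of all genes) and 1 fell. Either way, 13.5% of all genes were called in that last comparison. Of 8 other enzymes of ethanol oxidation 3 were tested and none passed. Adh1, the class I alcohol dehydrogenase that does most of the work in liver, was barely detected, at 1.73 ± 1.14 CPM in CIE+IL17 Ab, 1.48 ± 0.817 in CIE+IgG and 0.806 ± 0.240 in Air+IgG. Por, the reductase that passes electrons to microsomal cytochromes, had 72.0 ± 13.3 CPM in CIE+IL17 Ab, 63.2 ± 3.02 in CIE+IgG and 59.9 ± 4.69 in Air+IgG, with a log2 fold change of 0.27 for CIE+IL17 Ab against Air+IgG (adjusted p = 0.192, edgeR).

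Of 12 other aldehyde dehydrogenases tested, 1 rose in CIE+IL17 Ab against Air+IgG and none fell, with a list median of 0.22. It was Aldh3b2, at 2.23 ± 1.17 CPM in CIE+IL17 Ab, 2.31 ± 0.883 in CIE+IgG and 0.563 ± 0.260 in Air+IgG, a gene at a few CPM or less in every group (log2 fold change 1.96, adjusted p = 0.0477). Of 8 aldehyde reductases and other aldehyde enzymes, 1 fell and none rose. Cbr3, a carbonyl reductase, had 3.04 ± 1.08 CPM in CIE+IL17 Ab, 6.44 ± 0.877 in CIE+IgG and 6.04 ± 0.221 in Air+IgG, a log2 fold change of −0.999 against Air+IgG (adjusted p = 0.0377, edgeR).

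Of 10 genes of acetate and acetyl-CoA handling, 2 rose in CIE+IL17 Ab against Air+IgG and none fell, with a list median of 0.030. Acss3, the mitochondrial synthetase that prefers propionate, had 9.03 ± 2.97 CPM in CIE+IL17 Ab, 6.85 ± 0.955 in CIE+IgG and 4.38 ± 1.304 in Air+IgG, a log2 fold change of 1.04 against Air+IgG (adjusted p = 0.0499). Acly, which makes cytosolic acetyl-CoA from citrate and so runs beside Acss2, had 246 ± 24.7 CPM in CIE+IL17 Ab, 198 ± 14.3 in CIE+IgG and 181 ± 13.5 in Air+IgG, a log2 fold change of 0.44 (adjusted p = 0.0281, edgeR). None of the 12 genes of peroxide and peroxisome biology beside Cat passed. The closest were Sod1, which makes hydrogen peroxide from superoxide, at 104 ± 0.631 CPM in CIE+IL17 Ab, 90.9 ± 5.70 in CIE+IgG and 85.8 ± 8.17 in Air+IgG (adjusted p = 0.0719 for CIE+IL17 Ab against Air+IgG), and Gpx1, glutathione peroxidase, at 38.4 ± 3.73 CPM in CIE+IL17 Ab, 32.3 ± 5.49 in CIE+IgG and 30.2 ± 1.92 in Air+IgG (adjusted p = 0.115).

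Of 11 genes on the routes that supply the members' other aldehyde substrates or, for Bbox1, use a member's product, 3 rose in CIE+IL17 Ab against Air+IgG and none fell, with a list median of 0.53. Abat, the GABA transaminase that makes the substrate of Aldh5a1, had 519.6 ± 129 CPM in CIE+IL17 Ab, 338 ± 102 in CIE+IgG and 272 ± 46.6 in Air+IgG, a log2 fold change of 0.93 against Air+IgG (adjusted p = 0.0428, edgeR). Bbox1, the carnitine-forming enzyme that uses the product of Aldh9a1, had 12.6 ± 4.28 CPM in CIE+IL17 Ab, 6.35 ± 2.07 in CIE+IgG and 4.70 ± 1.40 in Air+IgG, a log2 fold change of 1.39 (adjusted p = 0.0310). Maob, the monoamine oxidase that yields aldehydes from amines, had 57.03 ± 23.7 CPM in CIE+IL17 Ab, 29.7 ± 6.08 in CIE+IgG and 24.0 ± 3.03 in Air+IgG, a log2 fold change of 1.25 (adjusted p = 0.0270, edgeR). All 7 of these pathway calls were lost without any 1 of the Air+IgG libraries or without CIE+IL17 Ab replicate 2, 6 were lost with CIE+IgG replicate 1 left out, and 2 with each of the other 4 libraries left out. Without the 2 Lars2-rich libraries Aldh3b2 and Acss3 kept their call and the other 5 did not. In the libraries numbered 54 to 60 none of the 7 passed, with only the groups compared in the fit 4 of the 6 that could be tested lost their call, limma-voom lost 2 and DESeq2 none. The thalamus and habenula and oligodendrocyte marker sums given above differed between the same groups, and their part in these 7 calls was not tested gene by gene beyond the fit with the marker score, in which none passed.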

How the data were processed

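Gene expression was measured by polyadenylated RNA sequencing of 9 hippocampus libraries, prepared with a stranded kit per the labels' protocols. Per the submitters' processing notes, STAR 2.5.1a and RSEM 1.3.0 were used with GRCm38; the sources used here do not give the annotation release, the strand setting or any filter. The deposited values are expected counts per Ensembl gene (27.1% have decimals), not normalized, which RSEM estimates by sharing ambiguous reads between genes. Identifiers were paired with GENCODE M21 symbols (14628 of 14779 matched). Groups follow the titles.

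Expected counts were rounded and fitted with edgeR 4.0.16 (R 4.3.3): filterByExpr with a minimum count of 10, TMM scaling, robust quasi-likelihood F-tests over all 9 libraries with no covariate (6 residual degrees of freedom), and Benjamini-Hochberg adjustment over 14696 genes at 0.05. CPM are scaled by TMM; group values are mean ± SD (n = 3). SE is the log2 fold change divided by the square root of F, and intervals are 95%. p-values measure the spread between these libraries. No pair of libraries agreed within sampling noise (chi-square per degree of freedom at least 3.93). The fit was tested on simulated data. DESeq2 1.42.0, limma 3.58.1 (voom) and other settings were alternatives. Correlations used log2 CPM with a prior count of 2. The members and lists were chosen with earlier results of these data known. Named beside the members are the pathway genes that passed and otherwise the 2 of a list with the smallest p, and the 2 genes most correlated with each member. Replicate numbers in the titles did not pair the libraries (correlations of deviations from group means −0.27 to 0.249).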

Additional observations from a re-analysis of the deposited data

How the results depend on the processing

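The members called in CIE+IL17 Ab against CIE+IgG numbered 1 (Aldh9a1) in place of 0 at an adjusted p under 0.10 and in DESeq2, and 0 to 1 when each library was left out. In CIE+IL17 Ab against Air+IgG they numbered 1 (Aldh9a1) in place of 2 with only the groups compared in the fit and without the Lars2-rich libraries, 0 in the 6 libraries numbered 54 to 60 and with the marker score of thalamus and habenula as a covariate, and 0 to 2 when each library was left out. With the 3 groups together they numbered 2 in place of 1 at an adjusted p under 0.10, 0 in the libraries 54 to 60, with the score and without the Lars2-rich libraries, and 0 to 1 when each library was left out. With the replicate number as a block (replicate block), 1 member passed in CIE+IL17 Ab against Air+IgG (Aldh9a1, adjusted p = 0.0486; Cat 0.0917), none of the 7 other pathway genes called there passed, and 0 members passed with the 3 groups together; a library's closest match in another group had its own number in 4 of 18 cases. Over all genes, 468 calls in CIE+IL17 Ab against CIE+IgG became 1293 at an adjusted p under 0.10, 1481 in DESeq2, 776 with the label numbers as a block, 14 with the replicate block, 1 with only the groups compared, 1 in the libraries 54 to 60, 0 with the score and 0 to 1313 with a library left out. For CIE+IL17 Ab against Air+IgG, 1990 became 3453 at 0.10, 1192 with only the groups compared, 571 with the replicate block, 2 in the libraries 54 to 60, 0 with the score, 1067 without the Lars2-rich libraries and 0 to 2305 with a library left out. For the 3 groups together, 839 became 1918 at 0.10, 2192 in DESeq2, 16 with the replicate block, 2 in the libraries 54 to 60, 0 with the score, 316 without the Lars2-rich libraries and 21 to 1335 with a library left out.

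Directions turned mainly for members near 0 and with the marker score. With that score the log2 fold change was −0.0024 for Aldh3a2 in CIE+IgG against Air+IgG; in CIE+IL17 Ab against CIE+IgG it was 0.16 for Adh5, −1.57 for Aldh2, −0.00043 for Aldh3a2, −0.50 for Aldh7a1 and −0.82 for Aldh9a1; and in CIE+IL17 Ab against Air+IgG it was −1.52 for Aldh2, −0.0028 for Aldh3a2, −0.35 for Aldh7a1, −0.62 for Aldh9a1, −0.69 for Acss1, −3.81 for Adh1, −0.54 for Por, −3.35 for Aldh3b2, −1.13 for Acss3, −0.30 for Sod1, −1.96 for Maob and 0.35 for Phax. The score is nearly the same as the group, so these estimates are wide. Without the Lars2-rich libraries it was −0.078 for Aldh3a2 in CIE+IgG against Air+IgG, −0.083 for Aldh3a2 and 0.062 for Acss1 in CIE+IL17 Ab against CIE+IgG, and −0.021 for Adh5 and −0.16 for Aldh3a2 in CIE+IL17 Ab against Air+IgG. In the libraries 54 to 60 it was −0.032 for Aldh5a1 in CIE+IgG against Air+IgG, and −0.056 for Aldh2 and −0.077 for Acss2 in CIE+IL17 Ab against CIE+IgG. DESeq2 gave −1.14e-05 for Aldh3a2 in CIE+IgG against Air+IgG.

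When each library was left out, the ranges that crossed 0 were, in CIE+IgG against Air+IgG, −0.0057 to 0.041 (Adh5), −0.085 to 0.046 (Aldh3a2) and −0.033 to 0.092 (Aldh5a1). In CIE+IL17 Ab against CIE+IgG they were −0.052 to 0.016 (Adh5), −0.087 to 0.24 (Aldh2), −0.083 to 0.11 (Aldh3a2), −0.17 to 0.062 (Acss1) and −0.0071 to 0.14 (Acss2). In CIE+IL17 Ab against Air+IgG they were −0.030 to 0.036 (Adh5), −0.083 to 0.10 (Aldh3a2), −0.037 to 0.19 (Acss1) and −0.086 to 0.051 (Acss2). The cause was not tested. Of the member values under all alternatives, 503 kept their direction and side of the threshold, 15 lost and 2 gained a call, and 47 changed sign.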
